A study of Mus musculus with 10 samples.

Results

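Low-methylation windows were the 5-kb windows of the mouse autosomes (GRCm38, also called mm10) in which CpG methylation averaged below 10% in both libraries. A window was covered, and so could be chosen, when at least 20 cytosines had 10 or more reads in both libraries and these cytosines lay in at least 4 of its 5 parts of 1 kb. Of 9285 covered windows, 2535 averaged below 10% in both libraries. After 27 windows of the 4 Hox clusters were left out, 2508 windows remained. The choice rested on the measured levels themselves, so the levels inside the windows are given as a description, with no test.

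The cells were spermatogonia of LT-11B6 male pups at postnatal day 6, which carry an Id4-eGfp transgene on a C57BL/6 background. ID4-EGFP+ cells from testis suspensions were sorted by antibody staining for TSPAN8, a tetraspanin of the cell surface. TSPAN8-high was the most strongly stained 1/3 of these cells and TSPAN8-low the most weakly stained 1/3. DNA of 5 sorts per fraction was pooled into 1 library of reduced-representation bisulfite sequencing, which reads CpG-rich restriction fragments, so no spread between replicates exists and each difference compares 2 libraries, not 2 conditions. The table listed 6644928 autosomal cytosines, with 82666068 reads for TSPAN8-high and 82823006 for TSPAN8-low.

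In most mammalian cells the CpGs of the genome are methylated, apart from CpG islands at gene starts. Some unmethylated stretches run well past a single island, across whole genes of developmental transcription factors; these are known as DNA methylation valleys or canyons. Their genes are often held by Polycomb proteins, which silence regulators of other lineages without DNA methylation.

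The sequences of 4 gene starts show what such a window looks like in letters, and those of Dgkh and Cavin4, in covered windows without a low part, are shown for contrast. Each is the RefSeq promoter sequence of GRCm38.p6 from 250 bases before to 50 after the start, 5′ to 3′ along the gene, with each CG in capitals. Dlx2, a homeobox factor of the forebrain and pharyngeal arches, starts in chr2:71546705-71547004 on the minus strand. Foxd3, a forkhead factor of the neural crest, starts in chr4:99656049-99656348 on the plus strand. Jarid2, a cofactor of Polycomb repressive complex 2, starts in chr13:44730524-44730823 on the plus strand. Hes5, a repressor downstream of Notch, starts in chr4:154960673-154960972 on the plus strand. Dgkh, a diacylglycerol kinase, starts in chr14:78629241-78629540 on the minus strand, and Cavin4, a muscle caveolar protein, in chr4:48663264-48663563 on the plus strand.
Dlx2: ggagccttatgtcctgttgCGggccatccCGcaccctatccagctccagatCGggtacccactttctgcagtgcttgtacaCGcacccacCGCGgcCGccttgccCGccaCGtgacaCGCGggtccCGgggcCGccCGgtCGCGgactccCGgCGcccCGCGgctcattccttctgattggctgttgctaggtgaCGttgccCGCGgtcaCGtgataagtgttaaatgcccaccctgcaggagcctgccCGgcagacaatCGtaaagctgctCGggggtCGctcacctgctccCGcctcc
Foxd3: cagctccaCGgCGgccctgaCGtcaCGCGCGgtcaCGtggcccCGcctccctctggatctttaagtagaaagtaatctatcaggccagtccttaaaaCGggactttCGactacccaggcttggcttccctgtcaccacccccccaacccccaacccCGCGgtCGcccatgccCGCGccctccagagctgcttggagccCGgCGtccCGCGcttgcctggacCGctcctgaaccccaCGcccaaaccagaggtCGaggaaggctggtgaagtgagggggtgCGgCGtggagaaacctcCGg
Jarid2: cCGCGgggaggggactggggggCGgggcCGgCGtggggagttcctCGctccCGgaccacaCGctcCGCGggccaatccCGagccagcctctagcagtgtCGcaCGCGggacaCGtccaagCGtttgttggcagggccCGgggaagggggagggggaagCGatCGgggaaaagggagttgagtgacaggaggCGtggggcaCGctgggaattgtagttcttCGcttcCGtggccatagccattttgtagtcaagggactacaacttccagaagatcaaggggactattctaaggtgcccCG
Hes5: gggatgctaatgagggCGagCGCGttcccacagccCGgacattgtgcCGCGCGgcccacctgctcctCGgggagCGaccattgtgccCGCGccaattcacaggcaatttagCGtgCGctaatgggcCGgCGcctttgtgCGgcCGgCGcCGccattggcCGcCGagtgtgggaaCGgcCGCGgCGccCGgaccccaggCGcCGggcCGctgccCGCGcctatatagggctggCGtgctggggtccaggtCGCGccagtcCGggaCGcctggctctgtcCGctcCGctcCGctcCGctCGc
Dgkh: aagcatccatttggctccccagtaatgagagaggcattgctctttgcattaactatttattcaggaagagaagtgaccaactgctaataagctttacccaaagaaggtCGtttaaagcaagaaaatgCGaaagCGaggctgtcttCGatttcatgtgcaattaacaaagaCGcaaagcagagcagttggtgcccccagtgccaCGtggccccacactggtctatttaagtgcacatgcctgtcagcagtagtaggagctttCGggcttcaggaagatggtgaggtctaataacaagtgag
Cavin4: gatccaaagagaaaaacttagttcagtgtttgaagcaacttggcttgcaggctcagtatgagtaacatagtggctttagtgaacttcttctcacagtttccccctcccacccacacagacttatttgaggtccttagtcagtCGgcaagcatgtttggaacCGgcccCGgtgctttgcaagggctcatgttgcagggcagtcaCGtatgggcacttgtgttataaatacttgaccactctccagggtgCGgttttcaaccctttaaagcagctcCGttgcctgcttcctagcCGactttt

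The Dlx2 sequence held 29 CGs, and the pooled level over its 26 covered cytosines was 0.708% for TSPAN8-high (424 reads, exact 95% interval 0.146 to 2.05%) and 0.504% for TSPAN8-low (397 reads, 0.0611 to 1.81%). At Foxd3, with 25 CGs, none of 107 and 99 reads over 9 cytosines was methylated, which allows levels of up to 2.80% and 3.03%. At Jarid2, with 24 CGs, none of 206 and 188 reads over 11 cytosines was methylated, which allows up to 1.46% and 1.60%. Hes5 had the densest of these sequences, with 41 CGs, and levels of 1.61% (747 reads, 0.833 to 2.79%) and 0.905% (884 reads, 0.391 to 1.78%). The 2 methylated starts were CG-poor by comparison, with 7 CGs each. Dgkh stood at 96.9% for TSPAN8-high (195 reads, 93.4 to 98.9%) and 96.0% for TSPAN8-low (175 reads, 91.9 to 98.4%), and Cavin4 at 97.1% (205 reads, 93.7 to 98.9%) and 96.8% (222 reads, 93.6 to 98.7%). Exact intervals and the limits from a count of 0, taken as 3 reads of the total, cover counting error only. They treat each read at each cytosine as independent. A read can count at several CpGs, so the intervals and limits are too narrow.

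Across all RefSeq promoter sequences of protein-coding genes (20085), the median number of CGs was 14, against 25 for the 2155 whose start lay in a low-methylation window. The 3116 starts in other covered windows with a low 1-kb part had a median of 22 CGs. The GC box GGGCGG, searched on both strands and itself holding a CG, was present in 72.9% of promoters in low-methylation windows, in 69.8% of those in the other covered windows with a low part and in 47.0% of all. The TATA motif TATAAA, searched on both strands, was present in 5.34%, 5.74% and 12.7%. The 259 starts in low-methylation windows low in every covered 1-kb part had a median of 22 CGs. GGGCGG was present in 66.0% of them and TATAAA in 8.49%, so they were no richer in CGs than the other covered windows with a low part. All low-methylation windows and those other covered windows stood closer to each other than to all promoters in these letters. The coverage rule asks for many CpGs, and its part in these shares was not tested.

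Of 113 miRNA hairpins in covered windows, 42 lay in low-methylation windows. Of all 7232 protein-coding genes with a covered window, 37.0% were overlapped by such a window. Some of the 42 hairpins shared a window, so they are not separate cases. Their mature sequences are shown for 3 windows with known clusters or families, from RefSeq, with the seed (bases 2 to 8) in capitals and family members of 1 seed next to each other.
miR-9-5p: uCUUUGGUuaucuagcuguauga
miR-17-5p: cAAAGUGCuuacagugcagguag
miR-20a-5p: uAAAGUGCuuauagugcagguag
miR-19a-3p: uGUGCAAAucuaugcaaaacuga
miR-19b-3p: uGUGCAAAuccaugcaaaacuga
miR-34b-3p: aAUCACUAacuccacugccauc
miR-34c-3p: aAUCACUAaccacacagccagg

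Mir9-3, a source of the neural miR-9, lay in chr7:79505001-79510000 with its host transcript, at 0.852% for TSPAN8-high and 1.09% for TSPAN8-low over 88 cytosines. The miR-17 to miR-92a cluster lay in chr14:115040001-115045000 at 3.96% and 5.10% over 81 cytosines, and the seeds AAAGUGC and GUGCAAA are each shared by 2 of its miRNAs shown. Mir34b and Mir34c, of the p53-induced miR-34 family, lay in chr9:51100001-51105000 at 2.35% and 1.38% over 34 cytosines. For both genes only the 3p form is shown, while miR-34b-5p has another seed, GGCAGUG. All 3 windows were below 6% in both libraries, and the windows of Mir9-3 and of Mir34b and Mir34c were low in every covered part.

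The chosen windows held 138981 cytosines of 10 or more reads in both libraries, a median of 51 per window. The mean over these cytosines was 4.65% for TSPAN8-high and 4.66% for TSPAN8-low, and 74.8% of them were at 0 in both. Window levels ran from 0% to 9.97% in TSPAN8-high, with a median of 4.94%, and from 0% to 9.98% in TSPAN8-low, with a median of 5.01%. The difference of the 2 libraries had a median of 0 percentage points and ran from -5.09 to 5.80, and 49.9% of windows were higher in TSPAN8-high. The low levels were therefore shared by both libraries, as the rule required. Reads per cytosine had a median of 18.6 and 18.1. A single window, chr17:39840001-39845000, stood apart at 635 and 627 reads per cytosine over 260 cytosines.

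How many of these windows were low along their whole length depended on how thinly covered parts were counted. Low methylation in every covered 1-kb part was found in 309 windows (12.3%), and 110 of the 769 windows covered in all 5 parts were low in all 5. At least 1 part stood at 50% or more in both libraries in 1658 windows (66.1%). These methylated parts rested on a median of 2 cytosines, against 14 in the low parts. Counting only parts of 3 or more cytosines, 1418 windows (56.5%) were low throughout and 460 (18.3%) held a part at 50% or more. When the 1-kb parts were weighted equally, the median window stood at 23.9% in both libraries, and 631 of the 2508 stayed below 10%. A mean over cytosines follows the CpG-dense parts of a window, so the windows are called low-methylation windows here and not valleys.

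**Figure D1:**
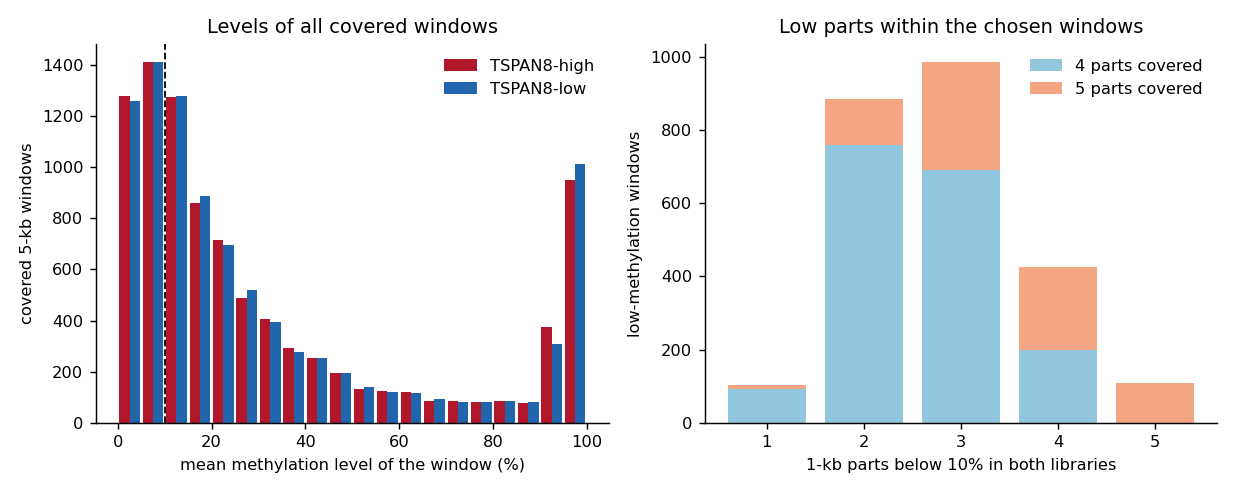
Left, the number of covered 5-kb windows by mean methylation level in steps of 5 percentage points, with red bars for TSPAN8-high, blue bars for TSPAN8-low and a dashed line at the 10% threshold. Right, the 2508 chosen windows by how many of their 1-kb parts were below 10% in both libraries, with colours for 4 or 5 covered parts: 2 parts in 884 windows and 3 parts in 985 were the commonest counts, and 5 parts were low in 110.

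The threshold fell in a dense range of levels, as the plot of levels shows. The windows just inside were at Cog8 and Nip7 (7.35% for TSPAN8-high and 9.98% for TSPAN8-low), Fam117b (9.95% and 9.97%) and Ext2 (8.61% and 9.97%). Just outside were a window at Plce1 (8.90% and 10%) and windows without a coding gene on chromosome 15 (8.54% and 10%) and chromosome 5 (10% and 9.67%). Windows on both sides of the line were thus alike in level.

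Most low-methylation windows lay at genes. A protein-coding gene overlapped 2336 of the 2508 windows (93.1%), against 83.0% of the 4710 other covered windows with a low part and 68.2% of the 2040 covered windows without one. A listed start of a coding gene lay in 65.2%, 51.7% and 3.19% of these groups. Starts were those of the RefSeq promoter table, which has 16457 of 20665 coding genes, so counts of starts leave out genes such as Sox9, Pou3f1 and Ccnd2. Around the starts in low-methylation windows that were low throughout, the mean level was 0.795% for TSPAN8-high and 0.906% for TSPAN8-low in the first 0.5 kb of the gene. It was still 14.4% and 14.8% at 2 to 2.5 kb into the gene, and reached 61.2% and 63.5% at 4.5 to 5 kb. In the other low-methylation windows the level at 2 to 2.5 kb was already 58.3% and 58.5%. In covered windows with a low part but a mean of 10% or more it was 84.3% and 84.5% there. The width of the dip in these 3 groups follows from how they were chosen and was not tested. The 2 libraries ran together at every distance, within 2.32 percentage points.

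**Figure D2:**
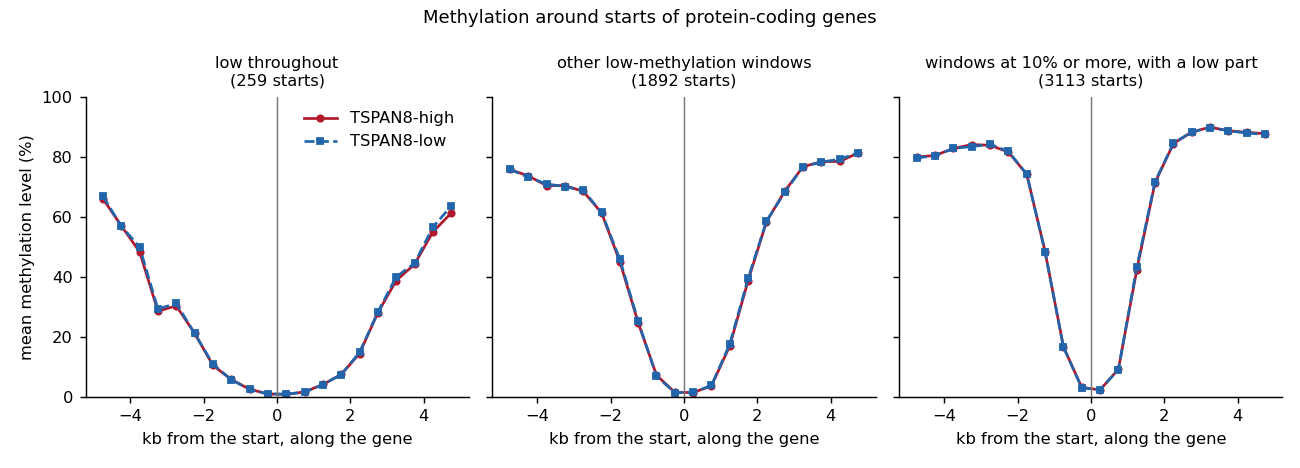
Mean methylation level (%) in steps of 0.5 kb from the starts of protein-coding genes, upstream to the left, in red for TSPAN8-high and blue for TSPAN8-low. The dip is widest around the 259 starts in windows low throughout, narrower around 1892 starts in the other low-methylation windows and narrowest around 3113 starts in covered windows at 10% or more with a low part.

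Developmental regulators were common in these windows. Of 341 genes of 10 developmental lists that had a covered window, 251 (73.6%) were overlapped by a low-methylation window, against 37.0% of all 7232 protein-coding genes with a covered window. Counted by listed starts in covered windows, 160 of 208 developmental genes (76.9%) and 40.2% of all genes had one in such a window. For windows low throughout, the shares of starts were 21.2% and 4.55%. A developmental gene was present in 319 of the 2508 windows (12.7%), in 25.2% of those low throughout, and in 3.40% and 3.58% of the covered windows with and without a low part that were not chosen. The lists are described by these counts, and genes with more covered windows had more chances to overlap one. Levels given below for an overlapped gene are those of its chosen window, and other covered windows of the same gene can be higher.

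Among homeobox genes outside the Hox clusters, which pattern axes and organs, 94 of 113 were overlapped. Vax1, of the ventral eye and forebrain, had a window of 149 cytosines at 2.25% for TSPAN8-high and 3.17% for TSPAN8-low. Nkx1-1 stood at 1.24% and 0.314% over 137 cytosines, and Lbx1, of migrating muscle precursors, at 1.78% and 0.968% over 125. Lhx5, of the forebrain, stood at 1.53% and 0.958% over 120. The windows of Nkx1-1, Lbx1 and Lhx5 were low in all 5 parts, and that of Vax1 in 4 of 5.

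Shares of overlapped genes lay above that of all genes in the smaller families of transcription factors too. Pax genes were overlapped in 5 of 7 cases, with Pax2, of kidney and ear, at 0.984% and 0.890% in chr19:44755001-44760000. Forkhead genes were overlapped in 23 of 33, with Foxc2, of vessels and heart, at 0.477% and 1.04%, and Foxl2, of the ovary, at 5.16% and 4.41%. Sox genes were overlapped in 10 of 13, with Sox12 at 1.13% and 1.08% and Sox9, the Sertoli cell determinant, at 3.19% and 2.25%. T-box genes were overlapped in 10 of 12, with Tbx4, of the hindlimb, at 1.31% and 1.53%, and all 4 covered GATA genes were, with Gata3, of T cells, at 1.51% and 1.20%. Counted by listed starts, T-box genes stood lower, with 3 of 7 starts in a low-methylation window and none in one low throughout. The windows of Pax2, Sox12, Tbx4 and Gata3 were low in every covered part, those of Sox9 in 4 of 5, of Foxc2 in 3 of 4 and of Foxl2 in 3 of 5.

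Of 38 bHLH genes 22 were overlapped, with Hes7, a clock gene of the somites, at 0.532% and 0.597%, low in 5 of 5 parts. Of 53 developmental zinc finger genes 41 were overlapped, with Sall1, of kidney and limb, at 1.87% and 1.08% and Prdm16, of brown fat, at 1.17% and 1.22%. Of 23 nuclear receptor genes 16 were overlapped, with the orphan receptor Nr4a3 at 1.01% and 0.430%. The shares of these 3 groups, from 57.9% to 77.4%, all lay above the 37.0% of all coding genes.

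Secreted ligands and their antagonists were overlapped in 26 of 45 cases (57.8%), against 37.0% of all coding genes. Gdnf, the ligand that Sertoli cells supply to spermatogonial stem cells, had a window at chr15:7810001-7815000 with 1.15% and 0.728% over 92 cytosines, low in 5 of 5 parts. Fgf9 stood at 1.17% and 0.844% and Tgfb1 at 1.10% and 1.89%. Bmp2 stood higher, at 6.63% and 5.16%, with 3 of 5 parts low.

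Genes of the Polycomb and Trithorax proteins were overlapped in 17 of 29 cases (58.6%), against 37.0% of all coding genes. Suz12 and Eed, core subunits of Polycomb repressive complex 2, stood at 1.91% and 1.66% and at 8.86% and 9.73%. Jarid2 stood at 0.263% for TSPAN8-high and 0.842% for TSPAN8-low over 95 cytosines, low in 5 of 5 parts. The chromodomain gene Cbx7, a reader of the Polycomb mark, stood at 2.28% and 3.12%, and Cbx8 is described with its run. Bmi1 and Ring1, of Polycomb repressive complex 1, stood at 1.08% and 1.69% and at 3.82% and 3.78%, and Kdm6b, a demethylase of that mark, had windows at 1.16% and 1.32% and at 2.64% and 1.43%. Of the histone H3K4 methyltransferases, Kmt2a stood at 3.16% and 2.96% and Kmt2b at 8.76% and 9.41%. The windows of Eed and Kmt2b were near the threshold, each with 2 of 4 covered parts low. Others overlapped were Phf1, Aebp2, Pcgf1, Pcgf2, Kmt2c and Kmt2d, with chosen windows between 1.32% and 9.44% for TSPAN8-high and between 1.30% and 9.06% for TSPAN8-low. Further covered windows of Bmi1 (21.5% and 22%), Kmt2a (96.8% and 96.5%) and Kmt2d (31.4% and 32.9%) were not chosen.

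Among genes of spermatogonial stem cells, 16 of 24 were overlapped (66.7%), against 37.0% of all coding genes. Of their 13 listed starts in covered windows, 7 lay in a low-methylation window and 0 in one low throughout. Pou3f1 and Ccnd2 had the lowest levels, 0.515% and 1.29% in the window of Pou3f1 and 0.632% and 0.897% in that of Ccnd2, and both windows were low in every covered part. Utf1 stood at 5.52% and 5.16%, Lin28a at 2.56% and 3.58%, and Eomes at 4.74% and 5.35%. Itga6, an integrin used to enrich these cells, stood at 8.23% and 8.42%. The window at the start of Id4, the reporter gene, missed the threshold at 11.1% and 10.6% over 278 cytosines. Its depth was 155 and 187 reads per cytosine, against a median of 18.5 and 18.3 over covered windows, and the part of the transgene in these reads was not tested. The start window of Foxo1 missed it at 10.1% and 10.2%, that of T at 13.3% and 13.0%, that of Neurog3 at 13.7% and 12.5%, and a window of Ret at 12.1% and 12.5%. Further from the threshold were Bcl6b, with windows at 19.7% and 19.9% and at 20.9% and 23.3%, the start of Gfra1, the receptor for GDNF, at 33.1% and 36.4%, and a window inside Zbtb16 at 97.7% and 97.3%. The start window of Lhx1 was not chosen either, at 11.1% and 9.66%, although another window of the gene was. The other stem cell genes overlapped were Lhx1, Pax7, Sall4, Cxcr4, Ccnd1, Lin28b, Pdx1, Shisa6, Bmi1 and Cdh1. Their chosen windows ran up to 7% for TSPAN8-high and 8% for TSPAN8-low, while another covered window of Sall4 stood at 97.1% and 97.3%. Several of them, such as Lhx1, Pax7 and Pdx1, are on the developmental lists too.

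Genes of differentiating spermatogonia were overlapped in 4 of 12 cases and genes of meiosis in 1 of 10, against the 37.0% of all coding genes. The 4 were Dmrt1 (6.77% and 7.02%), Esr1 (2.10% and 4.38%), Ugt8a (3.53% and 2.12%) and Ccnd2, and the meiosis gene was Rec114 (4.05% and 3.23%), which is needed for meiotic DNA breaks. Another covered window of Dmrt1 stood at 95.9% and 95.45%. Stra8, the retinoic acid target that starts meiosis, had a covered window at its start at 25.3% and 24.3%.

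Markers of somatic testis cells were overlapped in 5 of 7 cases for Sertoli cells, 2 of 6 for Leydig cells, 0 of 1 for peritubular myoid cells, 1 of 5 for endothelium and 0 of 2 for leukocytes. The share over all coding genes with a covered window was 37.0%. The overlapped Sertoli markers were Sox9, Gata4, Wt1, Gdnf and Inha, and the others Gli1, Nr2f2 and Sox17. All of these except Inha are on the developmental lists too. Wt1 had 2 chosen windows, at 3.14% and 2.81% and at 1.08% and 1.16%, and another covered window at 56.1% and 59.3%. Inha stood at 3.85% and 3.33%. Nr5a1, on both the Sertoli and Leydig lists, was not overlapped, with windows at 81.3% and 84.7% and at 40.3% and 43.5%. Also not overlapped were Kitl (20.4% and 19.4%), Lhcgr (60.95% and 64.75%), Insl3 (25.9% and 26.8%), Pdgfra (22.9% and 21.8%), Kdr, Flt1, Erg, Eng, Cd68 and Lyz2. A level in bulk DNA cannot say which cells of a fraction carry the methylated reads.

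**Figure D3:**
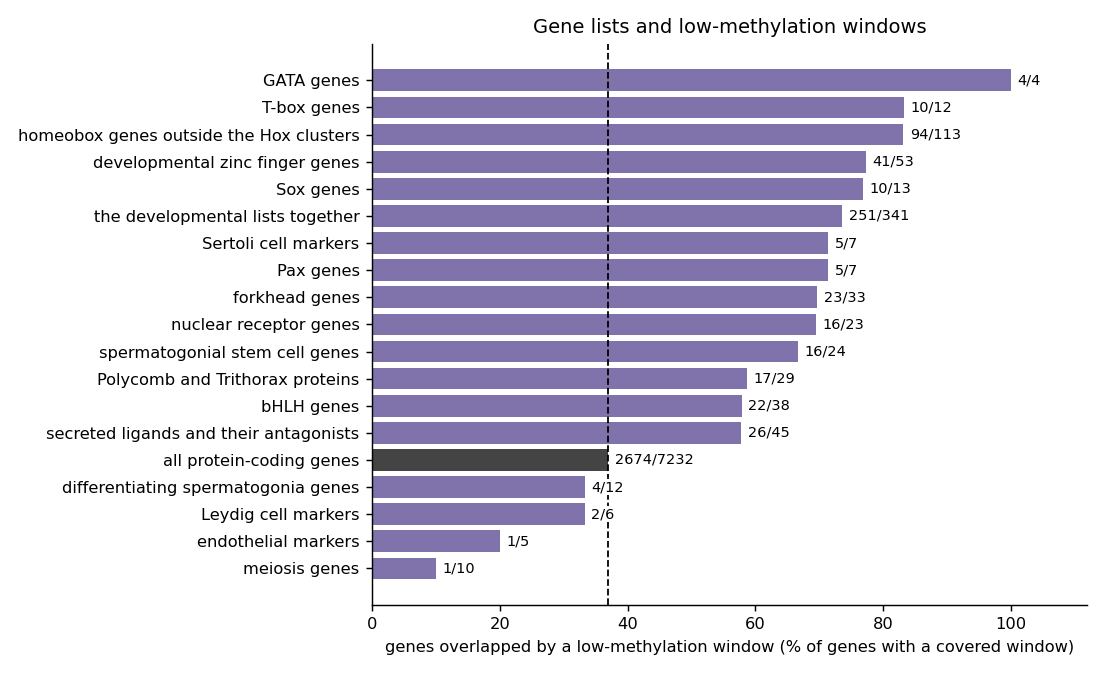
Share of genes (%) overlapped by a low-methylation window among the genes of each list with a covered window, for lists with at least 4 such genes, with the counts beside the bars. The dashed line and the dark bar mark the 37.0% of all protein-coding genes; GATA, T-box and homeobox genes stand highest and meiosis genes lowest.

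Adjoining windows formed 2377 runs, of which 2262 were single windows, 101 were pairs, 12 held 3 windows and 2 held 4. A gene of the developmental lists was present in 65 of the 115 runs of 10 kb or more (56.5%), against 8.89% of single windows. Of the 14 runs of 15 kb or more, 10 held one. Length follows from the level rule and from coverage of adjoining windows, and a run of several windows has more chances to hold a listed gene, so these shares are a description. With parts weighted equally there were 27 runs of 10 kb or more.

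The longest run, chr11:119040001-119060000, began at the start of Cbx8, a subunit of Polycomb repressive complex 1, and spanned 20 kb. The gene reaches only to position 119040913, and the first 1-kb part of the run had 0 covered cytosines. The measured cytosines of the run therefore lay beside Cbx8 and not in it. The 249 cytosines of the run averaged 2.05% for TSPAN8-high and 1.82% for TSPAN8-low, and its 4 windows lay between 1.20% and 2.98% and between 0.581% and 3.45%. Of its 1-kb parts 1 stood apart at 100% and 93%, on 1 cytosine. The other run of 20 kb lay in the gamma protocadherin cluster of chromosome 18, whose variable exons encode adhesion proteins of neurons, at 3.54% and 3.21% over 163 cytosines. Each run was followed by a part at 87% or more in both libraries, on 5 cytosines at Cbx8 and on 1 in the protocadherin cluster. Low methylation was found again outside both. The covered parts in the 5 kb before the Cbx8 run were below 10%, and the next parts after the protocadherin run stood at 0% and 0%, 7% and 15%, and 1.78% and 1.78%.

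The next 7 runs, each of 15 kb, were at Zfp503 (2.92% for TSPAN8-high and 2.54% for TSPAN8-low), Irx3 (3.47% and 3.35%), Foxb1 (3.10% and 3.58%), Foxd3 (1.51% and 1.78%), Nr4a2 (5.48% and 5.35%), Dlx2 (1.65% and 2.39%) and Tbx2 (4.64% and 4.50%). Zfp503 is a zinc finger corepressor, Irx3 is a homeobox factor of limb and neural tube, Nr4a2 is an orphan receptor of dopamine neurons and Tbx2 a T-box repressor of heart and limb. The Foxd3 run, chr4:99650001-99665000, was the most even, with its 3 windows between 0.773% and 2.15% and between 1.36% and 1.96%. Its parts reached 14% at most, while the part next to its end, with 2 cytosines, stood at 96.0% and 96.5%. On the other side, the part just before its start, with 6 cytosines, was still low at 0% and 1.67%. The Dlx2 run, chr2:71535001-71550000, began past an already low stretch of 5 kb outside it, where levels ran from 0% to 26.5%. Of the 127 covered parts inside these 9 runs, 99 were below 10% in both libraries and 9, in 5 of the runs, at 50% or more, each on at most 3 cytosines. Of 51 covered parts within 5 kb outside them, 18 were below 10% and 25 at 50% or more, so low methylation went on past the ends of several runs.

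**Figure D4:**
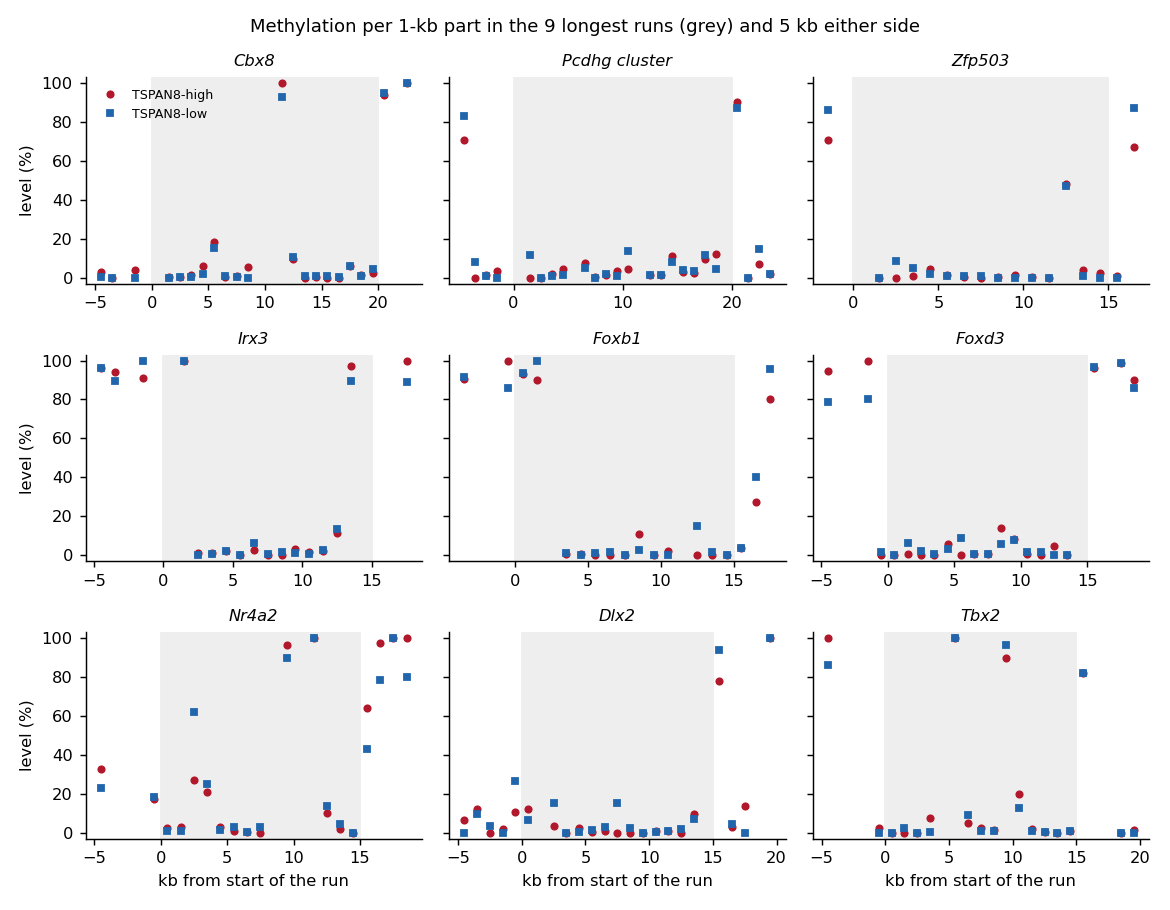
Methylation level (%) of each covered 1-kb part in the 9 longest runs (grey) and 5 kb on either side, by distance in kb from the start of the run, with red circles for TSPAN8-high and blue squares for TSPAN8-low. Of 127 parts inside the runs 99 are below 10% in both libraries, and outside them both low parts (18 of 51) and parts at 50% or more (25 of 51) occur.

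Protein-coding genes were absent within 10 kb of 78 low-methylation windows, and 50 of these held another listed gene. The 5 with the most cytosines were the deeply read window of chromosome 17 (5.45% for TSPAN8-high and 9.42% for TSPAN8-low), a window on chromosome 18 (2.38% and 2.82%), chr2:92055001-92060000 (1.05% and 1.67%), chr11:120185001-120190000 at 2810410L24Rik (1.02% and 1.45%) and chr6:30175001-30180000 at BB283400 (1.41% and 1.31%). The last 2 were low in every covered part, and the window at BB283400 was the second of a run with the miRNA host gene Mirc35hg. The chromosome 17 window had the widest gap between the libraries of the 5, 3.97 percentage points lower in TSPAN8-high. Its depth of 635 and 627 reads per cytosine was far above the medians of 18.6 and 18.1. Whether its reads come from a single locus was not tested.

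The flanks were compared too. Of 4708 windows that adjoined a low-methylation window, 3294 had at least 5 cytosines of 10 or more reads. Their mean level was 67.9% for TSPAN8-high and 68.0% for TSPAN8-low, against 82.6% and 82.7% in all 207626 windows with that coverage. By Fisher's exact test on pooled reads with Benjamini-Hochberg adjustment, 41 neighbouring windows (1.24%) differed at an adjusted p below 0.05 and by at least 10 points, 22 of them higher in TSPAN8-high and 19 lower. The same test called 0.889% of all windows (0.418% higher and 0.471% lower). Within bands of equal level the shares were close above 10%: 2.59% of neighbouring windows and 2.73% of all windows at 10 to 50%, 3.08% and 3.17% at 50 to 80%, and 0.481% and 0.469% at 80% or more. Below 10%, 1 of 299 neighbouring windows was called (0.334%), against 0.126% of all. The windows counted as all include the 2508 chosen ones, which the rule held below 10% in both libraries and of which 0 were called. They lower the shares of all windows, mainly below 10%, so nothing is read from that band. Above 10%, the flanks thus differed between the libraries about as often as other windows of their level. Of the 3294, 306 met the coverage rule and were not chosen because of their own level. Without these and all other covered windows (chosen after the data were seen), the mean level of the 2988 left was 71.5% in both libraries, against 84.9% and 85.0% in all 198341. Of them 34 (1.14%) were called by Fisher's exact test, against 0.793% of all.

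Pooled reads also differ where the libraries read different cytosines of a window. With each cytosine as its own stratum (Cochran-Mantel-Haenszel test, chosen after the data were seen) 25 neighbouring windows were called (0.759%), against 0.689% of all, and 16 were called both ways. Reads counted at several CpGs make all these p-values too small and the intervals given below too narrow.

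**Figure D5:**
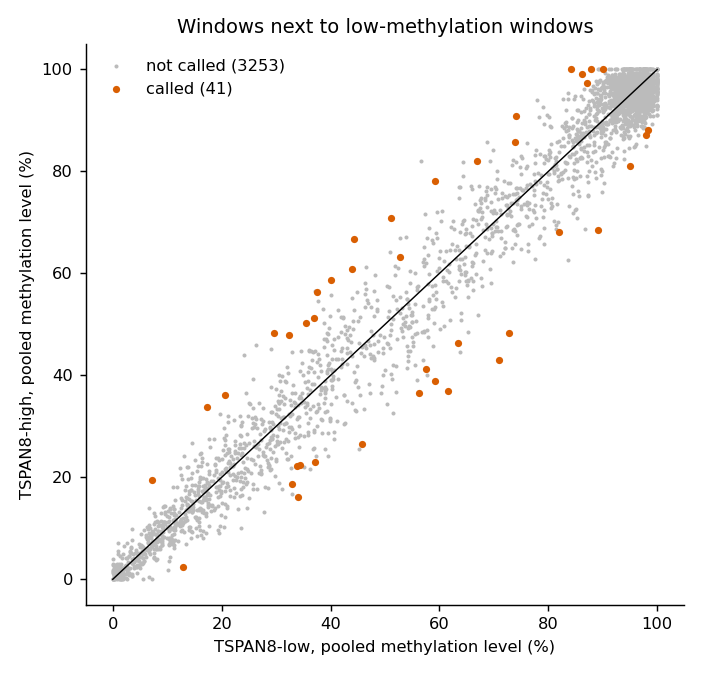
Pooled methylation level (%) in TSPAN8-low (x axis) and TSPAN8-high (y axis) of the 3294 windows that adjoin a low-methylation window, 1 point per window, with the line of equal levels. The 41 called windows, in orange, lie on both sides of the line, mostly at intermediate levels, and the other 3253, in grey, follow it.

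Of the 10 called neighbouring windows with the largest differences, 4 were also called by cytosine. Beside the window of Prr12 and Prrg2, chr7:45045001-45050000 stood at 43.0% for TSPAN8-high and 70.9% for TSPAN8-low, a difference of -27.8 points (95% Newcombe interval -37.9 to -16.9, adjusted p = 0.00105 by Fisher's exact test). Beside Znrf1, a ubiquitin ligase gene, chr8:111530001-111535000 stood at 48.3% and 72.8%, a difference of -24.5 points (-32.3 to -16.1, adjusted p = 4.72e-05 by Fisher's exact test). At the other 2, TSPAN8-high was higher. Beside Ddr1, a collagen receptor kinase, chr17:35705001-35710000 stood at 66.7% and 44.3%, a difference of 22.4 points (12.3 to 31.8, adjusted p = 0.00633 by Fisher's exact test). Beside Pkmyt1, an inhibitory kinase of CDK1, chr17:23720001-23725000 stood at 70.8% and 51.1%, a difference of 19.7 points (10.6 to 28.5, adjusted p = 0.00859 by Fisher's exact test). As means over cytosines these 4 differences were -25.8, -21.8, 17.4 and 24.5 points.

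The other 6 were not called by cytosine. They lay beside Tshz3, a zinc finger factor (-24.5 points pooled and -3.76 over cytosines), Nab2, a corepressor of EGR factors (-20.5 and -16.0), Tmc6 and Tmc8 (-20.4 and -3.42), Maneal and Epha10 (-19.7 and 0.154), the noncoding end of the Foxb1 run (-19.2 and -8.25) and Pex6, of peroxisome assembly (18.9 and 3.73). At Epha10 the sign turned, and only at Nab2 did the mean over cytosines still exceed 10 points.

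Inside the windows, cytosines with 5 to 9 reads in at least 1 library took no part in the choice, although they lie on the same or neighbouring fragments as those that did. There were 155139 of them, with a mean level of 6.82% for TSPAN8-high and 6.86% for TSPAN8-low, against 75.4% and 75.5% over all 3975404 such cytosines. On them 1710 of 2507 windows (68.2%) were below 10% in both libraries, 2 were at 50% or more in both, and the median window stood at 6.01% and 5.98%. Of the 309 windows low throughout, 299 (96.8%) were below 10% on these cytosines too. The low level was therefore present in these cytosines of the chosen windows too, in both libraries. Because they lie on the same or neighbouring fragments, this is not independent support.

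Between the libraries, 14 of the 2507 windows (0.558%) were called on these cytosines by Fisher's exact test on pooled reads, 5 of them higher in TSPAN8-high, against 0.243% of all 307624 windows tested. The windows had a median of 57 such cytosines and all windows tested a median of 9, and the part of this in the shares was not tested. The windows at Nkx2-5 and Cars2, named after their values were seen, gave -16.8 and 13.7 points as pooled levels (26.9% and 43.7%, and 20.6% and 6.94%). As means over cytosines they differed by -0.958 and 1.64 points. The Cochran-Mantel-Haenszel test called 0 of the windows, against 0.0468% of all windows. At an unadjusted p below 0.05 it had 347 of the windows and the pooled test 429. The share of all windows at that unadjusted p was not counted, so nothing is read from these counts. With no least difference, 4 windows (0.160%) passed the Cochran-Mantel-Haenszel test at an adjusted p below 0.05, against 0.0592% of all, and the largest of these differences was 7.17 points. Compared cytosine by cytosine, no window thus combined an adjusted p below 0.05 with a difference of 10 points.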

How the data were processed

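The cells were sorted mouse spermatogonia, and 2 of the 10 samples, 1 library of 5 pooled sorts per fraction, were used; the 8 chromatin samples were not analysed here. Groups follow the sample titles. The authors deposited, per cytosine and strand, the methylation level as a fraction rounded to 2 decimals and the coverage as read counts of at least 5, per the file headers and values. The authors also deposited a p-value and a difference of the 2 levels per cytosine, which were not used. The submitters' processing notes list mm9, mm10, Bowtie and SICER without a role; the aligner and caller of the table are not given in the sources used here. Positions were taken as mm10, because all 228793 listed cytosines inside RefSeq promoter sequences of GRCm38 fell on a CG. Gene, miRNA and promoter tables were RefSeq's, matched by position or symbol, and sequences of whole windows were not used here.

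The number of methylated reads was taken as the rounded product of level and coverage. Window levels are means over cytosines of 10 or more reads in both libraries. The test between libraries was Fisher's exact test, two-sided, on reads pooled per window, adjusted by Benjamini-Hochberg over all windows with at least 5 cytosines, and called at an adjusted p below 0.05 and at least 10 percentage points. A Cochran-Mantel-Haenszel test by cytosine was added after the data were seen, because on simulated data with known changes the pooled test also called unchanged windows. Reads carry no molecular identifiers and can count at several CpGs. Alternatives changed the coverage minimum, threshold, weighting, window phase, parts and density of cytosines.

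The windows and the 19 gene lists were chosen with earlier results of these data known. The named genes are the 10 longest runs, up to 4 members per developmental list with the most cytosines, members of the germ cell, Polycomb and somatic lists in a chosen window, the 10 called neighbouring windows with the largest differences, the 5 best covered windows with no coding gene within 10 kb, and the 3 windows on either side of the threshold; some items under this rule are not reported here. Computation used Python 3.11.15, numpy 2.4.6, pandas 2.3.3, scipy 1.17.1 and matplotlib 3.10.9.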

Additional observations from a re-analysis of the deposited data

How the results depend on the processing

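The number of windows followed the rule. Against 2508 windows and 115 runs of 10 kb or more, with a developmental gene in 12.7% of windows, 5 or more reads gave 4251 windows, 219 runs and 9.39%, and 20 or more reads gave 177, 2 and 21.5%. A threshold of 0.05 gave 1136, 42 and 18.1%, and one of 0.15 gave 3796, 185 and 9.69%. All 5 parts covered gave 769, 21 and 21.7%, 1 cytosine kept per 100 bases gave 98, 0 and 34.7%, and equal weight of parts (chosen after seeing the data) gave 639, 27 and 24.9%. At least 40 cytosines left 56 runs. The share with a coding gene moved beyond its interval to 95% with 40 cytosines, 91.8% with 1 cytosine per 100 bases and 89.4% with equal parts. Read-weighted means, a shift by 2500 bases and leaving out cytosines of more than 200 reads kept all 4 of these values close.

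The mean level inside the windows, in TSPAN8-high and TSPAN8-low, was 5.80% and 5.82% with 5 or more reads, 4.04% and 4.10% with 20 or more, 4.42% and 4.71% weighted by reads, and 11.5% and 11.5% with 1 cytosine per 100 bases. Instead of 41 called neighbouring windows (1.24% of them, 0.889% of all windows) there were 3 with 1 cytosine per 100 bases (0.149% and 0.157%), 69 at 5 points (2.09% and 1.35%), 6 at 20 points (0.182% and 0.217%), 79 with no least difference (2.40% and 1.43%), 57 with 5 or more reads (1.26% and 0.592%), 6 with 20 or more (0.932% and 1.12%), 9 among windows of 20 or more cytosines (1.59% and 1.78%) and 25 by cytosine (0.759% and 0.689%). Which share was larger thus turned with the setting. Instead of 14 windows called on cytosines of 5 to 9 reads (0.558% and 0.243%) there were 1 with 1 cytosine per 100 bases (0.0399% and 0.00945%), 25 at 5 points (0.997% and 0.26%), 0 at 20 points (0.14% of all), 28 with no least difference (1.12% and 0.262%) and 0 by cytosine (0.0468% of all). The neighbouring window at Epha10 turned from -19.7 to 0.154 points by cytosine. With 1 cytosine per 100 bases, the 9 named neighbouring windows that could be tested were no longer called, although some differences stayed close to their size (-22.6 points at Tshz3, -21.8 at Znrf1, 17.6 at Pkmyt1 and 16.9 at Pex6). By cytosine 5 others than Epha10 lost the call, as did Nab2 with 5 or more reads (-7.18 points) and Pex6 with 20 or more (13.9 points). The cause of these changes was not tested, beyond fewer cytosines or reads where the alternative removes them.

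No paired analysis was possible because each fraction had 1 library and the labels give no replicate numbers. Depth of about 18 reads per cytosine limits single 1-kb parts, many of which rest on 1 or 2 cytosines.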
